A study of Mus musculus with 2 samples.

Results

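The nuclear genes of oxidative phosphorylation were examined for open chromatin in mouse megakaryocytes, the platelet-forming cells of bone marrow. They were chosen by symbol, as protein-coding GENCODE genes on chromosomes 1 to 19 and X whose names begin with Nduf, Sdh (a to d), Uqcr, Atp5, or Cox4 to Cox8. The rule gave 98 gene records of 21755, with 97 symbols, because Atp5o has 2 records. It took in 12 assembly factors that carry the Nduf or Sdh prefix, and it left out the subunits encoded by mitochondrial DNA. Nuclear genes with other symbols were also left out, such as Cyc1 of complex III, which was counted with the electron carriers. The assay was ATAC-seq, which uses a transposase to cut and tag accessible DNA for sequencing. The samples were 2 biological replicates of primary megakaryocytes from adult male C57BL/6J mice of 5 to 6 weeks, with 50000 cells each, forming 1 group. The biosamples are separate but share 1 donor record, and sequencer models are named for replicate 2 only. No treatment, mutant genotype or other cell type was labelled, so the OXPHOS genes, as the group is called hereafter, were set against the other 21657 coding genes of the same samples.

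Oxidative phosphorylation takes place at the inner mitochondrial membrane. Complex I oxidises NADH and complex II oxidises succinate, both passing electrons to ubiquinone, from which complex III passes them through cytochrome c to complex IV and oxygen, while complex V, the ATP synthase, uses the resulting proton gradient to make ATP. Most of the subunits are encoded in the nucleus, where their promoters are known for sites of the transcription factors NRF1, GABP (an ETS factor), YY1 and ERR alpha, and several subunits of complex IV come in isoforms made mainly in muscle, lung or testis.

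A gene was called open where a region found in both replicates lay no more than 500 bp from a transcript start of that gene. Of the 98 OXPHOS gene records, 90 (91.8%) were open, against 12914 of the other 21657 coding genes (59.6%) and 59.8% of all coding genes. The same number of OXPHOS genes, 90, was open in replicate 1 alone and in replicate 2 alone. The strength of a region was the fold enrichment of its highest peak over background, and the value of a gene was that of its strongest promoter region, averaged over the replicates. The median over open OXPHOS promoters was 14.4-fold (quartiles 12.4 and 15.96), against 11.5-fold (quartiles 8.63 and 14.2) over the other open promoters. The medians were 14.7 for OXPHOS and 11.6 for other promoters in replicate 1, and 14.2 for OXPHOS and 11.3 for other promoters in replicate 2. The OXPHOS median stood at percentile 76.3 of the other open promoters. Of the 90 open OXPHOS promoters, 76 were above the median of the others, 48 were above the others' upper quartile and 3 below their lower quartile. Ranked among all open coding promoters, OXPHOS included, 17 stood above percentile 90. A region sums many cells, so fewer cells with the site open and a weaker opening in each cell cannot be told apart.

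**Figure D1:**
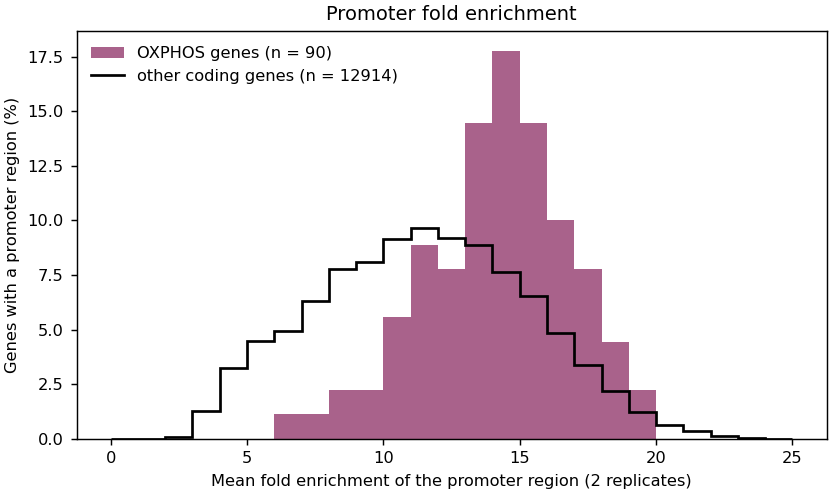
Mean fold enrichment over 2 replicates (x axis, 1-fold bins) against the percentage of genes with an open promoter (y axis), for 90 OXPHOS genes (filled) and 12914 other coding genes (black outline). The OXPHOS distribution sits to the right, with medians of 14.4 for OXPHOS genes and 11.5 for the others.

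The strongest promoter of each complex shows the high end of the group. Ndufa3, a small accessory subunit of the membrane arm of complex I, had 21.2 and 17.9-fold enrichment in replicates 1 and 2 (19.6 ± 2.36, SD, n = 2). Cox6b1, a complex IV subunit on the intermembrane side, had 19.8 and 19.01 (19.4 ± 0.526). Atp5e, the epsilon subunit in the central stalk of the ATP synthase, had 18.6 and 18.98 (18.8 ± 0.245). These promoters stood at percentiles 98.4, 98.1 and 97.3 of the other open promoters. Sdhc, a membrane anchor of succinate dehydrogenase, had 18.3 and 17.4 (17.8 ± 0.631). Uqcr10, a small subunit of complex III, had 15.8 and 15.2 (15.5 ± 0.413), and it was below the strongest promoter of each other complex in both replicates. The summit windows of the 5 promoters are printed because the motif counts given further on were made around such summits, over the full 100 bp to each side. Each is read 5′ to 3′ on the strand of the gene from GRCm38.p6, lies within 100 bp of the summit, and runs no more than 50 bases past the start used for that gene or for a coding gene on the other strand. Capitals mark the letters of any of the 12 motifs searched.
Ndufa3, chr7:3617249-3617423, plus strand: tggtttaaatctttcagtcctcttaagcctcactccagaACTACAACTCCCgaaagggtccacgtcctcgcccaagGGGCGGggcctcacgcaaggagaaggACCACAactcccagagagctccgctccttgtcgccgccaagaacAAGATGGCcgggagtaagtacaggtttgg
Sdhc, chr1:171150553-171150720, minus strand: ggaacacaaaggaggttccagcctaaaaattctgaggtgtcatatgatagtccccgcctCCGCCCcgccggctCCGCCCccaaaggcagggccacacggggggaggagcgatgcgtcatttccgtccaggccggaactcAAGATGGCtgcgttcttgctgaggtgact
Uqcr10, chr11:4704542-4704728, minus strand: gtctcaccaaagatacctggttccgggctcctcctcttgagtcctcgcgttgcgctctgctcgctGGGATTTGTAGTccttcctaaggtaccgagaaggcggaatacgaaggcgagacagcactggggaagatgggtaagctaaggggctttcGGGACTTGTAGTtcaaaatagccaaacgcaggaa
Cox6b1, chr7:30626101-30626271, minus strand: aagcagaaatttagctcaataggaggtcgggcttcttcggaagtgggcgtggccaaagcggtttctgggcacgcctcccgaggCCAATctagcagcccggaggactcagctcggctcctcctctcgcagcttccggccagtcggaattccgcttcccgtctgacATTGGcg
Atp5e, chr2:174464059-174464259, minus strand: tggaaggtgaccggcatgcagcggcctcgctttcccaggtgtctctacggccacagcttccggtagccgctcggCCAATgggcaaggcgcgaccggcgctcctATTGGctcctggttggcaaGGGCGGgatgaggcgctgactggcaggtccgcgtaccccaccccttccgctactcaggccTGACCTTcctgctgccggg
The capitals in the window of Ndufa3 are THAP11/ZNF143, SP/KLF, RUNX and YY1 letters. Sdhc has SP/KLF and YY1 letters, and Uqcr10 has the THAP11/ZNF143 letters at 2 places. Cox6b1 has NF-Y letters, and Atp5e has NF-Y, SP/KLF and ERR letters.

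Complex I had all of its 44 genes open, with a median of 14.7-fold. Its 7 core subunits encoded in the nucleus, which carry the flavin and the iron-sulfur clusters, had a median of 15.3, its 29 accessory subunits 14.9 and its 8 assembly factors 13.1. After Ndufa3 came Ndufb3, an accessory subunit of the membrane arm, with 18.7 and 18.9 (18.8 ± 0.137), followed by Ndufc1, another accessory subunit, with 18.6 and 18.003 (18.3 ± 0.425). Ndufab1, the mitochondrial acyl carrier protein, had 18.2 and 17.9 (18.1 ± 0.227). Ndufv1, the core subunit that binds FMN and takes electrons from NADH, had 18.7 and 16.8 (17.7 ± 1.31). Each of these 4 stood above the upper quartile of the other promoters, 14.2, in both replicates. At the low end, Ndufb10, an accessory subunit of the membrane arm, had 7.87 and 8.08 (7.97 ± 0.148), and the assembly factor Ndufaf3 had 8.54 and 7.95 (8.24 ± 0.416). Both means were below the lower quartile of the other promoters, 8.63.

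Complex II had 7 of 8 genes open, with a median of 13.2-fold. Besides Sdhc, the highest were the assembly factors Sdhaf3, with 14.9 and 15.7 (15.3 ± 0.565), and Sdhaf4, with 12.96 and 14.5 (13.7 ± 1.05). Sdha, the flavoprotein that oxidises succinate, had 12.7 and 13.7 (13.2 ± 0.654), and Sdhd, the second membrane anchor, had 12.5 and 13.7 (13.1 ± 0.825). Sdhc thus stood apart from the other subunits, whose means ran from 12.2 for Sdhb to 13.2 for Sdha. Complex III, counted without Cyc1, had all 8 genes open, with a median of 13.8. Its core protein Uqcrc1 had 16.1 and 13.8 (14.9 ± 1.62) and its core protein Uqcrc2 had 14.2 and 14.2 (14.2 ± 0.0516). Uqcrb, which takes part in ubiquinone binding, had 14.3 and 14.2 (14.2 ± 0.0268), and Uqcrfs1, the Rieske iron-sulfur protein, had 12.8 and 13.8 (13.3 ± 0.682). Replicate 1 of Uqcrc1 was above both values of every one of these, and its replicate 2 was below both values of Uqcrc2. The lowest of the complex was Uqcrh, the hinge protein next to cytochrome c1, with 9.37 and 9.95 (9.66 ± 0.412).

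Complex V had 17 of its 18 gene records open, with the highest median of the 5 complexes, 15.1-fold. The 5 F1 subunits had a median of 14.7, and the 11 open records of Fo and stalk subunits had 15.2. After Atp5e came Atp5j2, the f subunit of the membrane part, with 17.6 and 17.04 (17.3 ± 0.418), and Atp5mpl, a small membrane protein of the complex, with 16.3 and 16.98 (16.7 ± 0.449). Atp5a1, the alpha subunit of the catalytic head, had 16.3 and 16.04 (16.2 ± 0.189), and Atp5h, the d subunit of the peripheral stalk, had 16.9 and 15.4 (16.1 ± 1.12). All of these means were above the upper quartile of the other promoters. The c subunit, which forms the rotor ring, has 3 genes that encode the same mature protein. Atp5g2 had 16.2 and 15.7 (15.96 ± 0.323), Atp5g3 had 14.3 and 14.95 (14.6 ± 0.454) and Atp5g1 had 14.3 and 14.3 (14.3 ± 0.0241). Both values of Atp5g2 were above both values of the other two, and Atp5g3 and Atp5g1 overlapped.

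**Figure D2:**
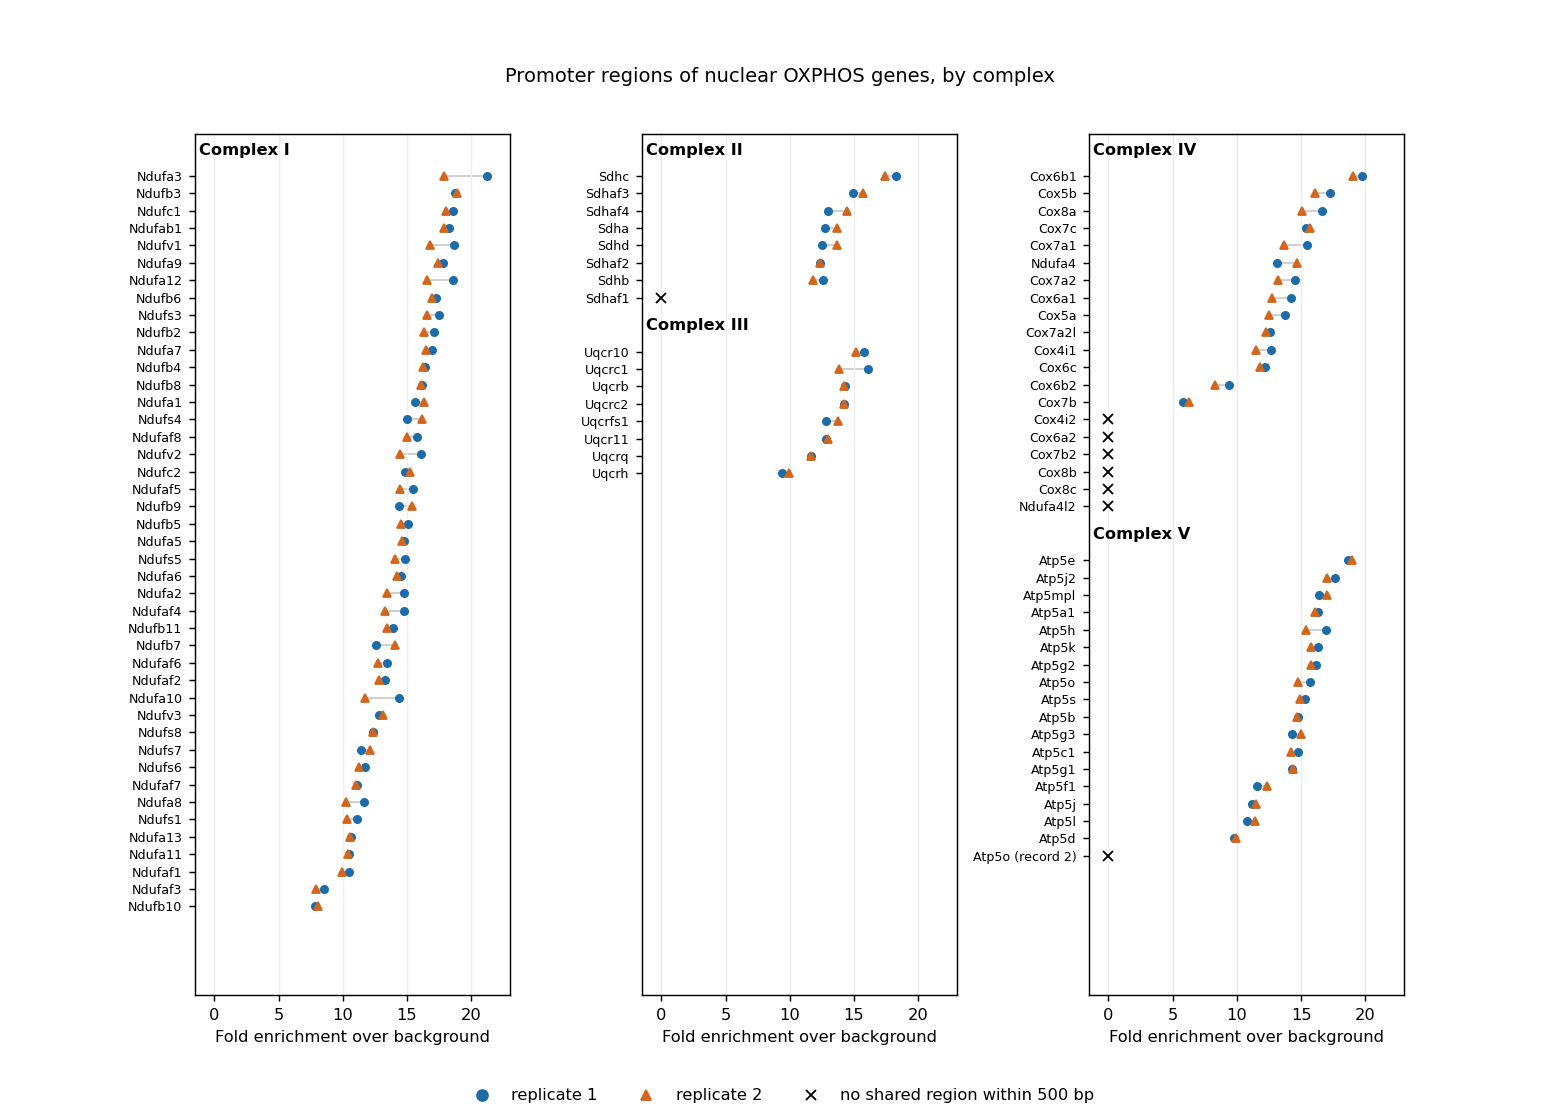
Fold enrichment over background (x axis) in replicate 1 (circles) and replicate 2 (triangles) at the strongest promoter region of the OXPHOS genes, by complex and ordered by the mean; 1 open gene is not drawn. Crosses, drawn at 0 for display, mark the 8 records with no shared region within 500 bp; 6 of them belong to complex IV.

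Complex IV held 6 of the 8 closed records. All 12 subunits made in most tissues were open, with a median of 13.7-fold, while 2 of the 8 isoforms known from particular tissues were open. Among the open subunits Cox5b, a zinc-binding subunit on the matrix side, had 17.2 and 16.1 (16.6 ± 0.833), and Cox7c, a small membrane subunit, had 15.4 and 15.6 (15.5 ± 0.192). Paired isoforms were then compared within the same libraries. Cox4i2, the isoform of lung and of low oxygen, had no promoter region, while Cox4i1 had 12.7 and 11.5 (12.1 ± 0.857). Cox6a2, of heart and skeletal muscle, had none, while Cox6a1 had 14.2 and 12.7 (13.5 ± 1.04). So in these pairs the widely made isoform alone was called open. The same held for Cox8b, the muscle isoform, and Cox8c, the testis isoform, against Cox8a with 16.6 and 15.1 (15.8 ± 1.096), and for Cox7b2, the testis isoform, against Cox7b with 5.84 and 6.27 (6.06 ± 0.308). Cox7b, on the X chromosome, was the lowest of all open OXPHOS promoters, at percentile 9.25 of the others. The other X-linked members, Ndufa1 with 15.7 and 16.3 (15.97 ± 0.446) and Ndufb11 with 13.9 and 13.5 (13.7 ± 0.317), were above the median of the other promoters in both replicates. Ndufa4, now counted as a complex IV subunit, had 13.1 and 14.7 (13.9 ± 1.098), whereas Ndufa4l2, its paralog induced by low oxygen, had none.

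The 2 open tissue isoforms went against this split. Cox7a1, the isoform of heart and skeletal muscle, had 15.4 and 13.6 (14.5 ± 1.28) at chr7:30183797-30184526, with no start of another gene within 500 bp of the region. Its widely made partner Cox7a2 had 14.5 and 13.2 (13.9 ± 0.9), and Cox7a2l, a related protein known from supercomplexes of complexes III and IV, had 12.6 and 12.3 (12.4 ± 0.22). Cox7a1 was above Cox7a2 within each replicate, but replicate 2 of Cox7a1 was below replicate 1 of Cox7a2, so the values overlapped across replicates. Cox6b2, the testis isoform, had 9.40 and 8.32 (8.86 ± 0.76) at chr7:4752491-4753447, also with no other gene's start nearby, against 19.4 ± 0.526 for Cox6b1. Cox6b2 was below Cox6b1 in both replicates and stood at percentile 26.7 of the other promoters. An open promoter does not measure RNA, which was not analysed here.

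**Figure D3:**
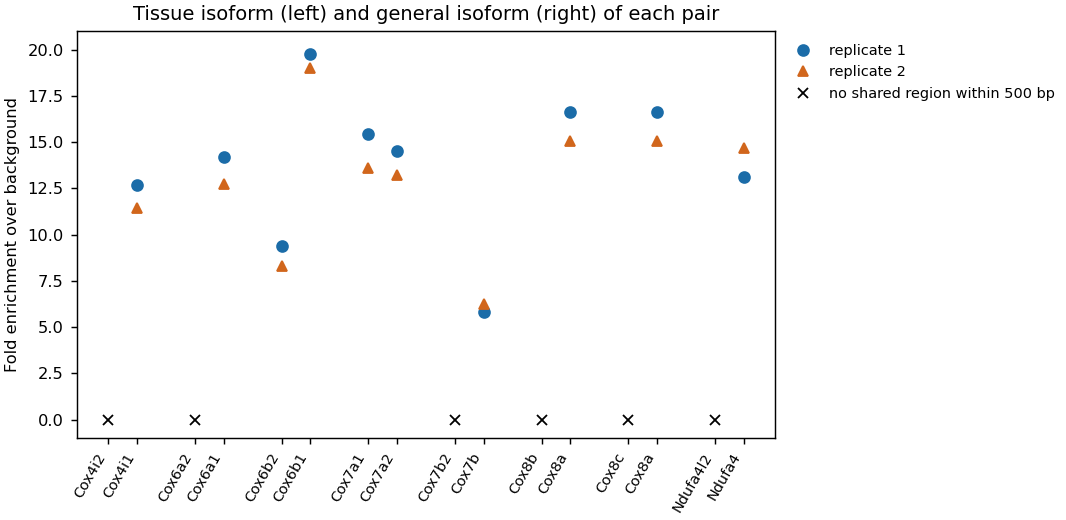
Fold enrichment over background (y axis) at the promoters of 8 isoform pairs, with the tissue isoform left and the general isoform right in each pair. Circles are replicate 1, triangles replicate 2, and crosses at 0 mark genes with no shared region within 500 bp; Cox7a1 and Cox6b2 are the tissue isoforms with one.

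The promoters of an open muscle isoform, an open general isoform and a closed muscle isoform are printed to show how they differ in letters. The first and second are summit windows, and the third is the RefSeq promoter of GRCm38.p6, from 250 bases before to 50 bases after the start, because Cox8b has no summit. Capitals again mark motif letters.
Cox7a1, chr7:30183968-30184168, plus strand: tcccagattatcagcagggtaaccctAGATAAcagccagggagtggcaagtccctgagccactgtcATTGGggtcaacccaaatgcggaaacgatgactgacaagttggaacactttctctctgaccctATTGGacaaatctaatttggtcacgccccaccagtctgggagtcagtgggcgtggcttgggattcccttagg
Cox8a, chr19:7217645-7217845, minus strand: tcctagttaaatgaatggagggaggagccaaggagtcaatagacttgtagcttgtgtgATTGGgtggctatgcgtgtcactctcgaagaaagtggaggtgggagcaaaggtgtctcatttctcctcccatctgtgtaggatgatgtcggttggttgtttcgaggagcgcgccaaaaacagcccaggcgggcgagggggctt
Cox8b, chr7:140900397-140900696, minus strand: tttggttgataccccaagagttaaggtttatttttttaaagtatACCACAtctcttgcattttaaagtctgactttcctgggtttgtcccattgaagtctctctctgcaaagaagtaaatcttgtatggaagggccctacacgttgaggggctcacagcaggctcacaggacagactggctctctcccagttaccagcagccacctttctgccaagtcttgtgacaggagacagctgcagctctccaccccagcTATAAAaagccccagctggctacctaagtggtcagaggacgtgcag
The window of Cox7a1 has GATA letters (AGATAA) and NF-Y letters (ATTGG) at 2 places, Cox8a has NF-Y letters, and Cox8b has TATA letters (TATAAA) and RUNX letters (ACCACA). The CpG ratio, the observed over the expected number of CG pairs within 500 bp of the 5′ end of the gene, was 0.277 for Cox7a1, 0.693 for Cox8a and 0.245 for Cox8b. All 8 closed records had a ratio under 0.6, from 0.0858 to 0.468. These include Sdhaf1 (0.0858) and the second Atp5o record (0.284). For both, a shared region lies at another start, as given below, so their ratios at the GENCODE 5′ end do not describe that region. Of the 21 OXPHOS records under 0.6, 13 (61.9%) were open, against 35.9% of the other coding genes under 0.6. All 77 OXPHOS genes at or over 0.6 were open, against 87.3% of the other coding genes at or over 0.6. The share of open OXPHOS promoters was above that of the other genes on either side of this limit. Under it, however, the genes compared were unlike in CpG content. The median ratio there was 0.432 for OXPHOS records and 0.238 for the other genes. The part of CpG content in the share of open promoters was not tested.

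The closed records had no peak within 500 bp of a start in either replicate, but several had a shared region not far off. The nearest shared region lay 1282 bp away for Cox4i2, 1794 bp for Ndufa4l2, 1869 bp for Cox6a2, 2705 bp for Cox8b, 20444 bp for Cox8c and 612693 bp for Cox7b2. The testis isoforms Cox8c and Cox7b2 were thus the farthest from any shared region. The second record of Atp5o (ENSMUSG00000116933.1), with 1 transcript at chr16:91684398-91926982, started 4351 bp from the promoter region of the first record, chr16:91931333-91931996, where Atp5o had 15.7 and 14.8 (15.2 ± 0.679). Sdhaf1, a complex II assembly factor, was the remaining closed gene, and its nearest region lay 1253 bp from its GENCODE start. That region, chr7:30322187-30322642, had 16.1 and 16.1 (16.1 ± 0.021), which is above the OXPHOS median, and the start that RefSeq gives for Sdhaf1 lies inside it. The RefSeq promoter of Sdhaf1 lies within the region as a whole and is printed because the call turns on which start is used.
Sdhaf1, chr7:30322326-30322625, minus strand: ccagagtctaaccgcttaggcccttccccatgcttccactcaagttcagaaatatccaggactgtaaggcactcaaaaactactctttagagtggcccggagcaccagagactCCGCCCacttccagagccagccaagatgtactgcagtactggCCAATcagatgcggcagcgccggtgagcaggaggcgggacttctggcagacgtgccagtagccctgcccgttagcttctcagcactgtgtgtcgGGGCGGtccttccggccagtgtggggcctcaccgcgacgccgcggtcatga
Capitals mark SP/KLF letters at 2 places and NF-Y letters. With RefSeq starts added, a choice made after seeing the data, 92 of the 98 records were open, as Sdhaf1 and the second Atp5o record, which RefSeq does not separate from the first, were added. When only the 5′-most start of each gene was used, 87 were open, as the regions of Atp5d and Cox7a2l, among those lost, lie at internal starts.

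The replicates gave near values for the OXPHOS promoters. The median log2 ratio of replicate 2 to replicate 1 was -0.04 over the OXPHOS promoters and -0.04 over the other open promoters, with an SD across genes of 0.09 for OXPHOS and 0.16 for the others. All 90 promoters were within 1.5-fold between replicates, and 71 (78.9%) were within 1.1-fold, against 69.6% of the others. The values were lower in replicate 2 for 61 OXPHOS promoters (67.8%), against 62.6% of the others. By complex the median log2 ratio ran from -0.12 in complex IV to 0.08 in complex II. The rank correlation between replicates, across genes that are not independent, was 0.936 over 90 OXPHOS promoters and 0.965 over 12914 others. The largest difference was that of Ndufa10, an accessory subunit of complex I, with 14.4 and 11.7, a log2 ratio of -0.29. It was followed by Ndufa3 (log2 ratio -0.25), Uqcrc1 (-0.22), Ndufa8 (-0.18), an accessory subunit on the intermembrane side with 11.7 and 10.3, and Cox7a1 (-0.18). All of these were lower in replicate 2, and the part of the sequencers in this was not tested.

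The shape and position of the regions were described next. The median width of the OXPHOS regions was 983 bp, against 871 bp for the other open promoters. The summit lay within 50 bp of a start for 61 of 90 OXPHOS promoters (67.8%), against 47.1% of the others, and the median distance was 30.5 bp, against 55 bp. This placement was not particular to OXPHOS genes. For the 78 mitochondrial ribosomal protein genes the share was 66.7% and the median distance 30.5 bp. Many OXPHOS genes also shared their promoter. An opposite-strand coding gene started within 1 kb of the 5′ end of 36 of the 98 records (36.7%), against 10.8% of the other coding genes, and all 36 were open. Among open genes the share was 40% for OXPHOS and 17.2% for the others. The partners included genes of mitochondrial ribosomal proteins, Mrpl36 next to Ndufs6 and Mrpl47 next to Ndufb5, the import factor Timm8b next to Sdhd, and the cytosolic translation genes Rps28 next to Ndufa7 and Eef1b2 next to Ndufs1. Atp5j, which encodes coupling factor 6, started 700 bp from Gabpa, the gene of the DNA-binding subunit of GABP. These partners were picked for mention after their names were seen. The median fold was 14.0 for OXPHOS genes with such a partner and 14.6 for open OXPHOS genes without one. For the other open coding genes it was 12.5 with such a partner and 11.2 without one. The part of shared promoters in the OXPHOS values was not tested. The fold of a shared region belongs to the region and cannot be assigned to one of its genes: the summit lay at -300 bp from the nearest Uqcr10 start, toward Zmat5, and at -353 bp from the nearest Uqcrh start, toward Lrrc41.

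Motif letters were searched on both strands within 100 bp of each summit. None of the motifs contains another, and matches that shared bases were counted for each motif. NRF1 letters (GCGCTTGCGC or the same with another base at the fifth place) were found at 19 of 90 OXPHOS promoters (21.1%), against 7.79% of the other open promoters. YY1 letters (AAGATGGC) were found at 13 (14.4%), against 4.24%, and ERR letters (AAGGTCA) at 8 (8.89%), against 1.49%. ETS letters (CCGGAAGT) were at 8 OXPHOS promoters (8.89%), against 7.91%, which is near the background. SP/KLF letters (GGGCGG) were at 38 (42.2%), against 60.4%, and NF-Y letters (CCAAT) were at 28 (31.1%), against 32.9%. Of the factors of blood cells, GATA letters (AGATAA) were at 3 (3.33%), against 2.51%, and RUNX letters (TGTGGT) at 7 (7.78%), against 9.08%. The GATA letters were at Atp5g1, Cox7a1 and Cox7c. THAP11/ZNF143 letters (ACTACAACTCCC or the same with any pair of bases between ACTACA and TCCC) were at 6.67%, against 4.42%, CREB letters (TGACGTNA) at 5.56%, against 4.73%, E-box letters (CACGTG) at 6.67%, against 8.08%, and TATA letters (TATAAA) at 3.33%, against 2.64%. At least one of the NRF1, ETS and YY1 motifs was at 36 OXPHOS promoters (40%), against 18.3%. None of the 12 motifs was found at 10 of 90 OXPHOS promoters, against 1866 of the 12914 others, so such promoters were not particular to OXPHOS genes. Within 50 bp of the summit, a window with fewer bases, NRF1 letters were at 12 OXPHOS promoters (13.3%), against 4.08% of the others, YY1 letters at 5 (5.56%), against 1.66%, and ERR letters at 2 (2.22%), against 0.681%. THAP11/ZNF143 letters were then at 1 OXPHOS promoter (1.11%), against 2.93%, and ETS letters at 4 (4.44%), against 5.59%, so in these cases the OXPHOS share was the lower with the narrow window and the higher with the wide one. The same turn was seen for GATA letters, at 1 (1.11%), against 1.17%, and for TATA letters, at 0, against 1.22%, and NF-Y letters turned the other way, at 24 (26.7%), against 24.9%. No chance test was made of these shares, and a match of letters does not show that a factor was bound.

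**Figure D4:**
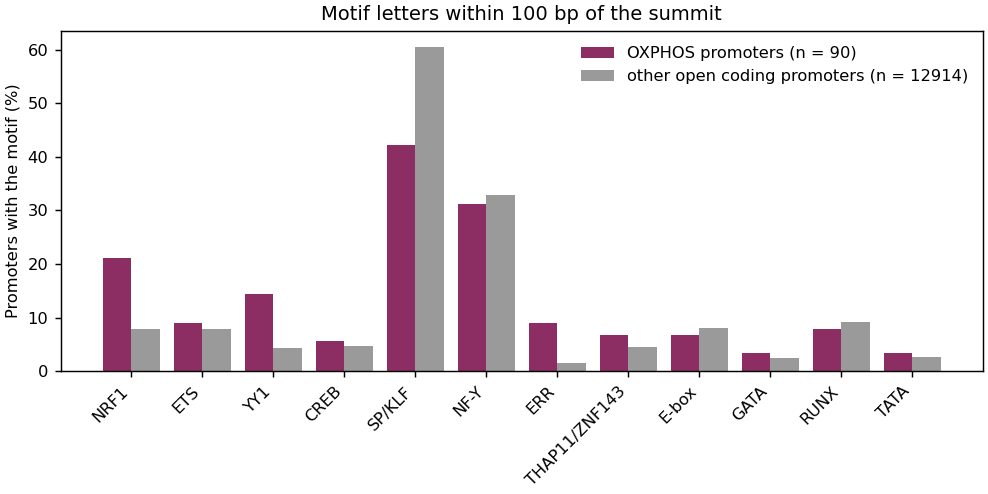
Percentage of promoters with each motif within 100 bp of the summit (y axis), for 90 OXPHOS promoters (left bars) and 12914 other open coding promoters (right bars). The left bar is the higher for NRF1 (21.1% against 7.79%), YY1 (14.4% against 4.24%) and ERR (8.89% against 1.49%), and the lower for SP/KLF (42.2% against 60.4%).

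By complex, NRF1 letters were at 7 of 17 open promoters of complex V and 4 of 7 of complex II, but at 6 of 44 of complex I, 1 of 8 of complex III and 1 of 14 of complex IV. ERR letters were at 5 of 17 in complex V (Atp5a1, Atp5e, Atp5g3, Atp5k and Atp5mpl), at Ndufb4, Ndufs6 and Sdhd, and at none of complexes III and IV. YY1 letters were at 8 of 44 in complex I and at none of 14 in complex IV. Of the 8 promoters with ERR letters, 6 also had NRF1 letters. Motif pairs were counted for the OXPHOS promoters only. This count and that of NRF1 with YY1 letters below thus have no background share and do not show a trait of this group. Positions were taken relative to the nearest start of the gene, with a match on both strands counted once. Of 14 YY1 matches 12 were downstream of the start (median +32.5 bp), as were 15 of 24 NRF1 matches (median +14 bp), whereas 45 of 52 NF-Y matches (median -59 bp) and 7 of 7 THAP11/ZNF143 matches were upstream. Such positions are given for the OXPHOS promoters only, so these counts have no background share and do not show a trait of this group. The 3 promoters with both NRF1 and YY1 letters were Atp5o, Ndufs6 and Uqcrc1, and these sites are printed to show their order, each on the strand of its gene with the motif in capitals.
Atp5o NRF1, chr16:91931602-91931631, minus strand: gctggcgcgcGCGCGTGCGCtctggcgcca
Atp5o YY1, chr16:91931540-91931569, minus strand: ccgcccgggaaAAGATGGCcgcgcctgcag
Ndufs6 NRF1, chr13:73328479-73328508, minus strand: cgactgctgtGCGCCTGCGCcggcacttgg
Ndufs6 YY1, chr13:73328431-73328460, minus strand: gggtcaccggcAAGATGGCggcggtgctga
Uqcrc1 NRF1, chr9:108936643-108936672, plus strand: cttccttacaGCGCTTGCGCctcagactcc
Uqcrc1 YY1, chr9:108936705-108936734, plus strand: acggaagttagAAGATGGCggcgtccgcag
In all of these promoters the NRF1 letters come before the YY1 letters and both are downstream of the nearest start, with centres at +70.5 and +132.5 bp in Atp5o, +48.5 and +96.5 bp in Ndufs6, and +24.5 and +86.5 bp in Uqcrc1. Ndufs6, an accessory subunit of complex I, had 11.8 and 11.2 (11.5 ± 0.366).

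Distal regions were shared regions with no part within 1 kb of any annotated start, counted within 50 kb of any start of a gene. OXPHOS genes had 3.30 ± 2.41 (mean ± SD over 98 records), against 3.68 ± 3.77 over the other coding genes, and the median was 3 in both. No distal region was found for 11 records (11.2%), against 22.8% of the other coding genes. Among genes at or over the CpG limit used above, the shares were near, 9.09% for OXPHOS and 10.5% for the others. The mean counts there were 3.26 for OXPHOS and 4.45 for the others. Under that limit the shares were 19% for OXPHOS and 33.4% for the others. The part of CpG content in these shares was not tested. The 11 OXPHOS records without a distal region were Atp5j2, Cox7b2, Cox7c, Cox8c, Ndufa4, Ndufa9, Ndufaf4, Ndufaf5, Ndufaf8, Ndufs5 and Uqcrb, of which 9 had an open promoter. Cox4i2, closed at its promoter, had the most, 11, followed by Ndufb6, an accessory subunit of complex I, and Sdhb, the iron-sulfur subunit of complex II, with 10 each, the assembly factor Ndufaf6 with 9 and Ndufa4l2 with 8. Cox4i2 and Ndufa4l2 were thus among these although their promoters were closed. The neighbourhoods were gene-rich, with a median of 3 other coding genes within 50 kb of an OXPHOS gene, against 2 for the other coding genes. Of 318 distinct distal regions near OXPHOS genes, 85 (26.7%) had an OXPHOS gene as the nearest coding gene. The strongest of them, chr7:30373457-30373995, with 23.5 and 24.4-fold, was within 50 kb of Sdhaf1 but nearest to Lrfn3. The median fold of the distal regions was 7.11, against 7.10 for distal regions near other coding genes only. RUNX letters were at 25.5% of them, against 25.3%, and GATA letters at 11.3%, against 8.93%. NRF1 letters, at 21.1% of OXPHOS promoters, were at 3 of these distal regions (0.943%), against 0.211% of distal regions near other coding genes only.

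**Figure D5:**
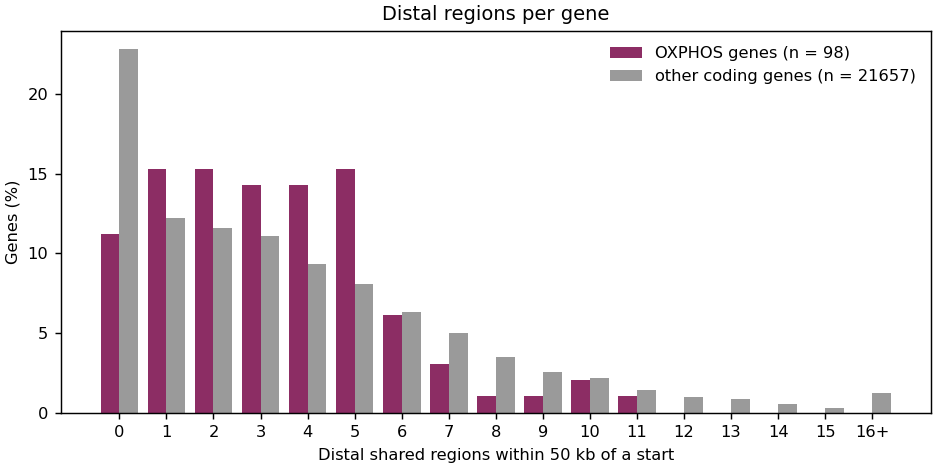
Number of distal shared regions within 50 kb of a start (x axis) against the percentage of genes (y axis), for 98 OXPHOS records (left bars) and 21657 other coding genes (right bars). The share without a distal region was 11.2% for OXPHOS and 22.8% for the others, and the highest OXPHOS count was 11. Among genes at or over the CpG limit of the text, not drawn apart here, the shares were 9.09% for OXPHOS and 10.5% for the others.

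Lists of related genes were described in the same way. The open share was 59.8% over all coding genes and 87.3% over non-OXPHOS coding genes at or over the CpG limit. Median CpG ratios of the lists in this paragraph ran from 0.72 to 0.78, and the part of CpG content in their shares was not tested. Of 48 genes of assembly factors and electron carriers outside the symbol rule, 47 were open, with a median of 14.5-fold. The highest were Ecsit, an assembly factor of complex I, with 20.3 and 20.7 (20.5 ± 0.312), Lyrm7, which helps insert the Rieske protein, with 19.1 and 17.6 (18.3 ± 1.06), and Uqcc3, an assembly factor of complex III, with 17.1 and 18.004 (17.5 ± 0.673). Cyct, the testis form of cytochrome c, was closed, as were Cox7b2 and Cox8c, whereas Cox6b2, also a testis isoform, was open. All 78 mitochondrial ribosomal protein genes were open, with a median of 14.5, close to the OXPHOS median of 14.4, and 42.3% of them had a coding partner within 1 kb. All 18 genes of the TCA cycle list were open, with a median of 13.3, led by Sucla2, a subunit of succinyl-CoA ligase, with 18.1 and 18.96 (18.5 ± 0.62), and by Idh3a and Idh3b, subunits of isocitrate dehydrogenase, with 18.2 and 17.6 (17.9 ± 0.437) and 17.8 and 17.1 (17.4 ± 0.487). Of 20 regulators of mitochondrial genes 19 were open, with a median of 11.3, which is below the 11.5 of all open coding promoters. The highest were Polrmt, the mitochondrial RNA polymerase, with 17.4 and 17.8 (17.6 ± 0.279), the coactivator gene Pprc1, with 16.8 and 16.005 (16.4 ± 0.55), and Tfam, which packages mitochondrial DNA, with 17.2 and 14.3 (15.8 ± 2.07). Ppargc1a, the gene of the coactivator PGC-1 alpha, was the closed one.

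For the series as a whole, the deposited lists held 108778 peaks in replicate 1 and 114523 in replicate 2, none of them on the mitochondrial chromosome, and these merged into 69539 shared regions. No read counts were used, so depth is unknown, and a promoter without a region was not detected rather than shown to be shut. Of the genes that mark the labelled cell type, 9 of 20 (45%) were open, against 59.8% of all coding genes. For 5 of these 9 the region lay more than 500 bp from the 5′ end of the gene. Pf4 was open with 4.07 and 5.06-fold and Itga2b with 13.9 and 13.05 at an internal start. Gp1bb, Gp5 and Gp6 were closed in both replicates. Of markers of other cells, 14 of 15 neutrophil (93.3%), 9 of 12 monocyte and macrophage (75%), 8 of 12 erythroid (66.7%) and 0 of 10 hepatocyte genes were open. The medians were 6.70, 9.36 and 7.45-fold for the lists with any, against 7.62 for the megakaryocyte list and 11.5 over all open coding promoters. The part of other cell types in the OXPHOS values was not tested.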

How the data were processed

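Peaks were called by the authors on mm10, per the labels; the aligner, the peak caller and their versions are not given in the sources used here. Column 7 of the deposited peak lists holds the fold enrichment, a ratio, and each peak's −log10 p-value and −log10 q-value were deposited beside it. These meanings follow the narrowPeak format and are stated by no header. In the 2 main lists the largest deposited p-value was 0.00997. Scaling between samples is not stated, 0 value columns were left unmapped, and depth per sample is unknown, so no counting interval was computed.

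Within each replicate's pseudoreplicated list, peaks sharing 1 bp or more were merged, the merged region took the fold and summit of its strongest peak, and a shared region was the union of merged regions that overlapped between replicates. Starts came from GENCODE M21 and sequence from GRCm38.p6, within whose chromosomes all peak ends lay. RefSeq promoters were matched by symbol for 78 of 97 symbols. Python 3.11.15, pandas 2.3.3, numpy 2.4.6, pysam 0.24.0 and matplotlib 3.10.9 were used, and the scripts were tested on simulated data.

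The labels put both samples in 1 group, so no test between groups was made, and each SD (n = 2) is the spread between biosamples of 1 donor record. The members and lists were chosen with earlier results of these data known. Named genes were the 5 highest of each complex, all without a promoter region, the isoform families, the 5 with the most distal regions, the lowest 5, the 5 most different between replicates, and, from the lists of assembly factors and carriers, regulators and TCA cycle genes, the 3 highest and those closed. Some genes are counted but not reported by name here. Alternatives were other deposited lists, a stricter overlap, a 4-fold minimum, other windows, other starts, −log10 p in place of fold, subunits alone, and each replicate left out.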

Additional observations from a re-analysis of the deposited data

How the results depend on the processing

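The count of open OXPHOS records stayed between 87 and 92 of 98 under every alternative run on all records. Over all coding genes the open share ran from 53.0% with the IDR-thresholded lists to 63.2% with the replicated-peaks list. Without assembly factors and other non-subunits, a smaller set, 78 OXPHOS records were open. The replicated-peaks list added Cox4i2. The median over other promoters was 12.1 with the IDR-thresholded lists, and 11.2 to 11.5 with each replicate left out in turn. The OXPHOS median's percentile was 73.2 with those lists, 75.7 with peaks of at least 4-fold, 71.0 by −log10 p, and 76.9 to 77.5 with a replicate left out. The mean number of distal regions per OXPHOS gene followed the list and window: 1.51 with the IDR-thresholded lists, 4.79 with the replicated-peaks list, 2.82 with the conservative list, 3.19 at 50% overlap, 3.09 at 4-fold, 3.17 from the 5′ end alone, 1.24 within 20 kb, 6.43 within 100 kb, 3.64 counted from 500 bp, 3.33 without assembly factors and other non-subunits, and 3.85 to 3.86 with a replicate left out. With motif windows of 50 bp, 21 promoters had an NRF1, ETS or YY1 motif, since these windows hold fewer bases. No paired analysis was possible because the series has 1 group.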
